A study of Mus musculus with 9 samples.

Results

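The genes described here are 42 protein folding genes, the chaperones and the components of the unfolded protein response. They were taken as a named list, and each was read from the probe sets that the platform annotation assigns to it alone. Of several such probe sets, the one with the highest mean over the 9 arrays stood for the gene. In this way 40 of the 42 genes had a value, out of 18193 genes in all, and Hsf1 and Hsp90ab1 were not analysed here. The endoplasmic reticulum accounted for 20 of the 40, the cytosol for 17 and the mitochondria for 3.

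The samples were total RNA of circulating blood from E12.5 mouse embryos on a mixed C57BL6/129SvEv background, read on Affymetrix whole-genome mouse arrays. The 3 genotypes were homozygous CbfbΔC95/ΔC95, heterozygous Cbfb+/ΔC95 and wild-type Cbfb+/+ offspring of heterozygous crosses, with 3 arrays each. All 3 groups came from pools of 8 to 10 embryos, and nothing in the labels states that the arrays of a genotype were hybridised with separate pools, so p-values measure the spread between arrays, which may be technical. The title of the series names the C-terminus of CBFβ-SMMHC, a leukaemia fusion protein that joins CBFβ, the partner of the RUNX transcription factors, to smooth muscle myosin heavy chain, and the labels describe the ΔC95 allele no further.

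Secreted and membrane proteins fold in the endoplasmic reticulum with the help of Hspa5 and its cochaperones, of lectins that hold glycoproteins, and of disulfide isomerases. When unfolded proteins build up there, the sensors Ern1, Atf6 and Eif2ak3 signal to the nucleus, and the resulting unfolded protein response raises the transcription of chaperone and degradation genes. In the cytosol, heat shock proteins and the ring-shaped chaperonin TRiC fold newly made proteins, among them actin and tubulin, and in mitochondria Hspd1 and Hspe1 form a chaperonin of their own. Blood at this age consists mostly of maturing primitive erythroid cells, which fill with globin and lose their organelles.

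Cell type markers were set beside the tissue label first. The 5 erythroid markers averaged between 13.77 and 13.78 on the log2 scale on the homozygous arrays, 13.74 and 13.77 on the heterozygous and 13.78 on each of the wild-type arrays, near the top of the measured range, and 1 of them, Alas2, was lower in homozygous blood, at -0.16 from wild type. Monocyte and macrophage markers stood apart: all 9 were lower in homozygous blood, against wild type, with a median difference of -3.11 on the log2 scale, and 4 of the 9 were lower in heterozygous blood. Their mean per array was 4.49 to 4.65 in homozygous, 7.00 to 7.05 in heterozygous and 7.31 to 7.37 in wild-type blood. All 5 megakaryocyte markers were lower in homozygous blood too (median -2.14), while 1 of 5 was higher in heterozygous blood. Of 5 liver and visceral endoderm markers, 4 were higher in homozygous blood (median 0.45) and 1 lower in heterozygous blood. Of 5 mesenchyme markers, 4 were lower in homozygous blood (median -0.49) and 2 higher in heterozygous blood. No marker is at 0, because the scale has no zero, and the part of these cells in the results below was not tested. In such bulk samples, fewer cells of a type and less RNA per cell cannot be told apart.

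Cbfb, the targeted gene, averaged 5.10 ± 0.16 on the log2 scale in homozygous, 5.77 ± 0.04 in heterozygous and 6.01 ± 0.03 in wild-type blood (SD, n = 3 each), and the 3 groups did not overlap. Its probe set was not placed against the changed end of the gene, so it is a limited check of the labels. Sex-linked genes differed between the pools as well. The Y-linked gene Eif2s3y averaged 5.65 in homozygous, 4.73 in heterozygous and 6.12 in wild-type blood on the log2 scale, and Xist, which is made from the inactive X chromosome, averaged 10.11, 9.86 and 8.89 in homozygous, heterozygous and wild-type blood. Between homozygous and heterozygous blood both were higher in homozygous blood, so the 2 genes do not give 1 order of sex makeup, and the part of sex in the results was not tested. Arrays of 1 genotype correlated at 0.9958 or more across all probe sets. The values are relative within an array. Poly-A spike-ins, bacterial control transcripts mixed into the RNA before labelling, averaged 11.96 in homozygous, 11.26 in heterozygous and 10.38 in wild-type samples on the log2 scale over 24 probe sets. If arrays were scaled to equal spike-in levels, 0 of the 40 genes would lie above 0 in any of the 3 comparisons, so "higher" and "lower" below are relative to the other transcripts of an array.

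Homozygous blood was first set against wild type, to ask which folding genes differ when both copies of Cbfb carry the allele. Among the 40 genes, 9 were higher and 15 lower in homozygous blood at an adjusted p under 0.05 (limma, Benjamini-Hochberg over all 45037 probe sets). Over all genes, 25.6% were called, 10.7% as higher and 14.9% as lower. Many of the 40 are abundant transcripts, and of the 21 with a mean log2 value of at least 8, 17 were called, against 66% of the 1694 genes that bright. This limit of 8 was chosen after the values were seen. The arrays of both genotypes did not overlap for 29 of the 40 genes, against 39.3% of all genes. The median log2 difference was -0.04 over the 40 genes and 0.05 over all genes, with 19 of the 40 genes above 0 and 21 below.

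The calls were counted by compartment and role. In the reticulum homozygous blood had 9 of 20 genes below wild type and 1 above, with a median log2 difference of -0.12. In the cytosol 6 of 17 genes were higher and 5 lower, with a median of 0.01. Within it, 5 of the 10 heat shock genes were lower and none higher, with a median of -0.16, while 6 of the 7 TRiC genes were higher and none lower, with a median of 0.44. Of the 3 mitochondrial genes 2 were higher and 1 lower, with a median of 0.53. Over all genes 10.7% were called higher and 14.9% lower. All 7 TRiC genes have a mean log2 value of at least 8, and 66% of genes that bright were called in either direction. These counts describe the lists, and no test was made between compartments. The macrophage and megakaryocyte markers moved beside them, with medians of -3.11 and -2.14 in the same comparison.

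**Figure D1:**
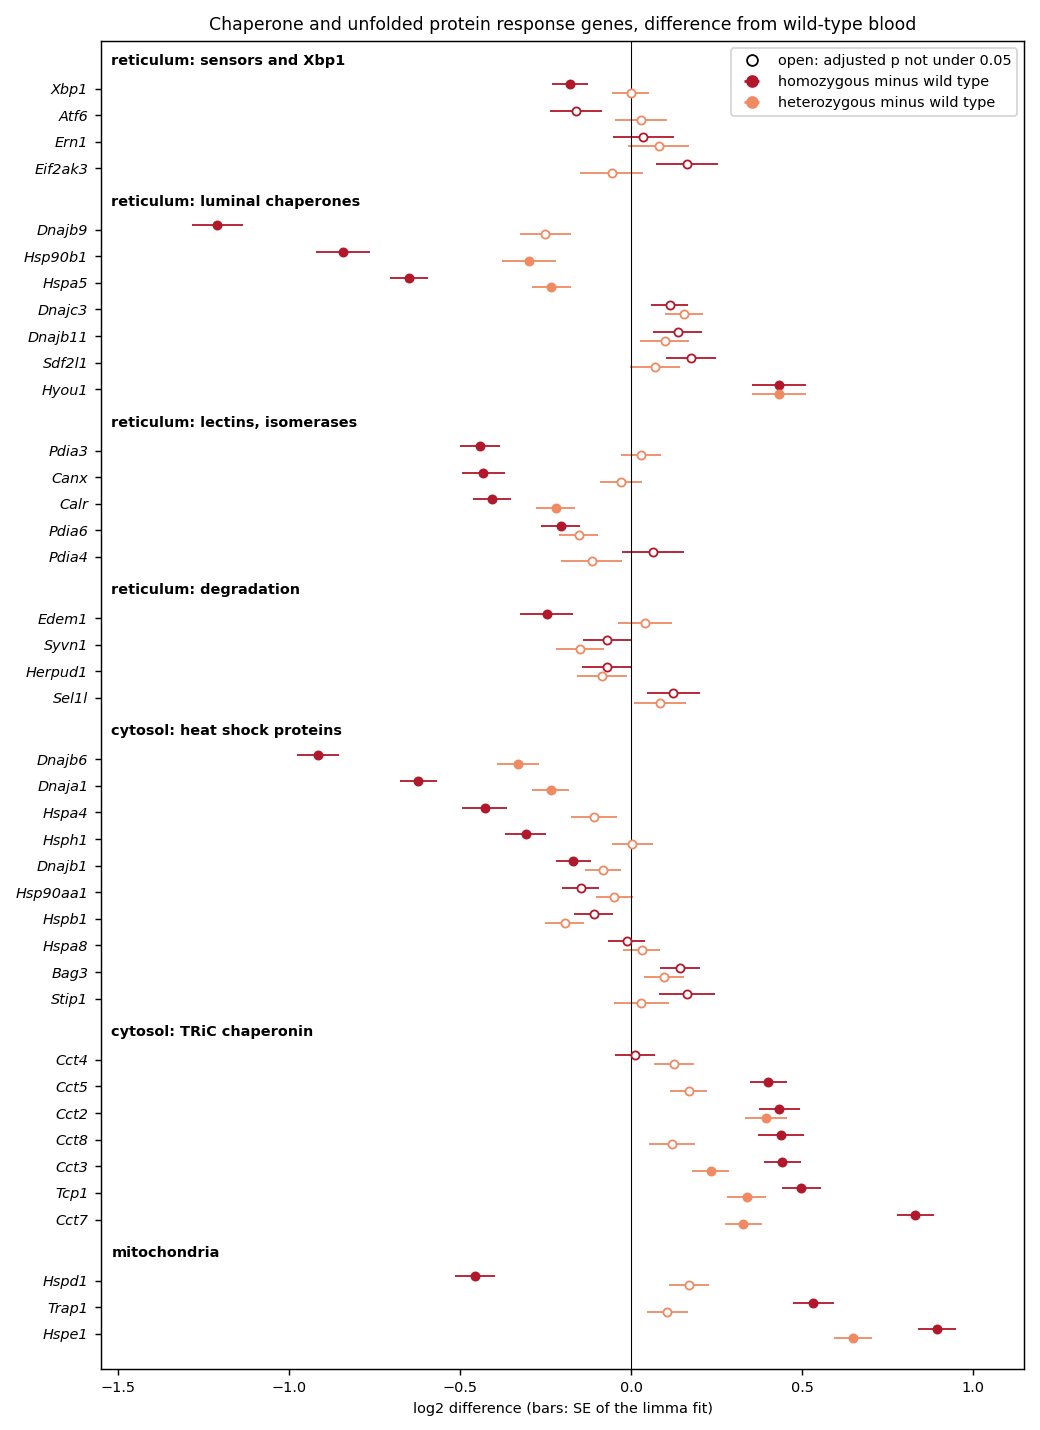
Differences of the 40 genes from wild-type blood on the log2 scale (horizontal axis), by role and compartment, with homozygous in dark red and heterozygous in orange. Bars are standard errors of the limma fit and open points have an adjusted p of 0.05 or more. TRiC genes lie at or right of 0 and heat shock genes mostly left of it, with Dnajb9 at -1.21 and Hspe1 at 0.90 at the ends of the homozygous range.

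Among the sensors, the changes were small on the brightest probe set of each gene. Xbp1, the transcription factor whose messenger RNA the sensor Ern1 splices, had log2 values of 9.68, 9.75 and 9.72 on the homozygous arrays, 9.92, 9.90 and 9.86 on the heterozygous arrays and 9.88, 9.88 and 9.92 on the wild-type arrays. Every homozygous array lay below every other array, and the heterozygous and wild-type arrays overlapped. The homozygous minus wild-type difference was -0.18 ± 0.05 (SE, adjusted p = 0.0345). Leaving out homozygous replicate 1 or 3, heterozygous replicate 2 or any wild-type array ended this call (adjusted p between 0.0509 and 0.109), and the other 3 probe sets of Xbp1 were not called, at 0.01, 0.02 and 0.10. Splicing of Xbp1 was not measured here.

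The sensors themselves did not pass the test on the brightest probe set of each. Between homozygous and wild-type blood the log2 difference was 0.04 ± 0.09 for Ern1, the kinase and nuclease that splices Xbp1. It was -0.16 ± 0.08 for Atf6, the membrane-bound transcription factor that is cut loose under stress, and 0.16 ± 0.09 for Eif2ak3, the kinase also called Perk that slows translation (SE, adjusted p = 0.824, 0.172 and 0.252). A slightly dimmer probe set was lower in homozygous blood for both Atf6, at -0.63 (adjusted p = 0.00032), and Eif2ak3, at -0.38 (adjusted p = 0.00185). The mean of this probe set over the 9 arrays was 5.86, against 6.00 for the brightest, for Atf6, and 4.59 against 4.61 for Eif2ak3. Those 2 genes thus gave no single answer.

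The luminal chaperones ran from -1.21 to 0.43 in log2 difference between homozygous and wild-type blood. Dnajb9, a J-domain cochaperone that restrains Ern1 and delivers clients to Hspa5, measured 6.10, 6.13 and 5.96 on the homozygous arrays on the log2 scale, 7.08, 7.11 and 6.87 on the heterozygous and 7.30, 7.28 and 7.24 on the wild-type arrays. The 3 genotypes did not overlap, and homozygous arrays stood far below the other 6. The homozygous minus wild-type difference of -1.21 ± 0.07 on the log2 scale was a 2.31-fold fall (SE, adjusted p = 2.91e-07), and that from heterozygous blood was -0.96 ± 0.07 (adjusted p = 5.46e-06). Dnajb9 has 1 probe set.

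Hsp90b1, the Hsp90 of the reticulum, measured 6.61, 6.32 and 6.41 on the homozygous arrays on the log2 scale, against 6.97, 7.05 and 6.94 on the heterozygous and 7.27, 7.37 and 7.22 on the wild-type arrays. Hspa5, the central chaperone of the reticulum, also called BiP, had log2 values of 10.04, 9.95 and 9.91 on the homozygous arrays, 10.41, 10.38 and 10.37 on the heterozygous and 10.59, 10.62 and 10.64 on the wild-type arrays. In both genes the 3 genotypes formed 3 separate steps, lowest in homozygous blood. Hsp90b1 fell by 0.84 ± 0.08 and Hspa5 by 0.65 ± 0.06 in homozygous relative to wild-type blood on the log2 scale (SE, adjusted p = 7.74e-06 and 4.22e-06), which is 1.79-fold and 1.57-fold. The second probe set of Hsp90b1 was also lower, at -0.58. The other 2 probe sets of Hspa5, both of kinds that can bind related transcripts, disagreed: one was lower, at -0.55, and the other higher, at 0.20 (adjusted p = 0.0334).

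Hyou1, an Hsp70-like exchange factor that resets Hspa5, moved the other way. Its log2 values were 7.05, 6.97 and 7.11 on the homozygous arrays, 7.10, 6.99 and 7.05 on the heterozygous and 6.77, 6.62 and 6.46 on the wild-type arrays. Mutant arrays of both kinds overlapped and all lay above the wild-type arrays. The difference from wild-type blood was 0.43 ± 0.08 in homozygous and 0.43 ± 0.08 in heterozygous blood (SE, adjusted p = 0.00163 and 0.00437). It rests on a probe set that can bind related transcripts. The next probe set of Hyou1 gave 0.09 in homozygous and 0.10 in heterozygous blood and was not called. The other luminal genes, Dnajb11, Dnajc3 and Sdf2l1, had log2 differences of 0.14, 0.11 and 0.18 between homozygous and wild-type blood and did not pass the test. Of the dimmer probe sets of Dnajc3, an Hspa5 cochaperone, 2 were lower, at -0.31 and -0.57.

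**Figure D2:**
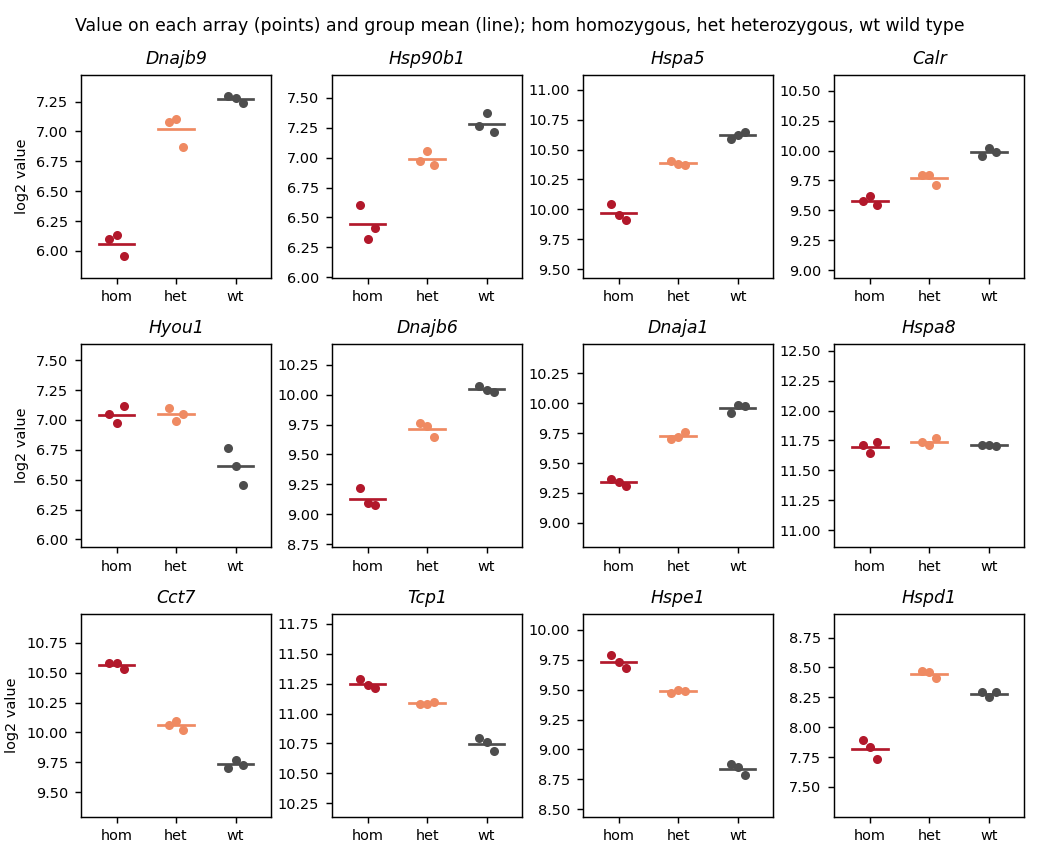
Log2 value (vertical axis, each panel spanning the same range) of 12 genes on each of the 9 arrays (points) with the group mean (line), homozygous, heterozygous and wild type from left to right. Dnajb9, Hsp90b1, Hspa5, Calr, Dnajb6 and Dnaja1 step down toward the homozygous arrays, Cct7, Tcp1 and Hspe1 step up, Hspa8 is level, and Hspd1 is lowest in homozygous and highest in heterozygous blood.

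Lectins and disulfide isomerases were lower in 4 of 5 cases, with a median log2 difference of -0.41 between homozygous and wild-type blood. Over all genes 14.9% were called lower. Of genes with a mean log2 value of at least 8, which Calr and Canx have, 66% were called in either direction. Pdia3, the isomerase that works with the lectins, had log2 values of 7.21, 7.16 and 7.17 on the homozygous arrays, 7.72, 7.57 and 7.66 on the heterozygous and 7.65, 7.57 and 7.64 on the wild-type arrays. Canx, the membrane-bound lectin calnexin, had log2 values of 8.73, 8.74 and 8.69 on the homozygous arrays, 9.17, 9.16 and 9.04 on the heterozygous and 9.07, 9.22 and 9.17 on the wild-type arrays. For these 2 genes the homozygous arrays alone were low, and heterozygous and wild-type arrays overlapped. Homozygous minus wild-type differences were -0.44 ± 0.06 for Pdia3 and -0.43 ± 0.06 for Canx on the log2 scale (SE, adjusted p = 0.000145 and 0.000259).

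Calr, the soluble lectin calreticulin, showed steps in place of this: log2 values were 9.57, 9.62 and 9.55 on the homozygous arrays, 9.80, 9.79 and 9.71 on the heterozygous and 9.95, 10.02 and 9.99 on the wild-type arrays. No array of 1 genotype overlapped with another, but the homozygous minus heterozygous difference of -0.19 did not pass (adjusted p = 0.0513). All 3 probe sets of Calr gave nearly the same homozygous minus wild-type difference, between -0.41 and -0.39 (brightest probe set, SE 0.06, adjusted p = 0.000184). Pdia6, another isomerase, had log2 values of 7.36, 7.37 and 7.32 on the homozygous arrays, 7.45, 7.42 and 7.34 on the heterozygous and 7.50, 7.57 and 7.60 on the wild-type arrays. Homozygous and heterozygous arrays overlapped there and both lay below wild type. Its homozygous minus wild-type difference was -0.21 ± 0.06 (SE, adjusted p = 0.0231), and the call was lost without homozygous replicate 3 or wild-type replicate 2 or 3 (adjusted p = 0.0651, 0.0722 and 0.0889). Pdia4, at 0.06 ± 0.09, did not pass.

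Of the 4 degradation genes, which recognise misfolded proteins and pass them out of the reticulum, only Edem1 was called. Edem1 trims mannose from misfolded glycoproteins. It had log2 values of 6.50, 6.52 and 6.57 on the homozygous arrays, 6.92, 6.89 and 6.64 on the heterozygous and 6.86, 6.74 and 6.72 on the wild-type arrays. The homozygous arrays lay below all others, and 1 heterozygous array lay near them. The difference of -0.25 ± 0.08 from wild type (SE, adjusted p = 0.0434) lost its call when any homozygous array, any wild-type array or heterozygous replicate 2 was left out (adjusted p between 0.0517 and 0.153). Herpud1 and the ubiquitin ligase Syvn1 with its partner Sel1l had log2 differences of -0.07, -0.07 and 0.12 and did not pass.

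Promoter sequences were set beside these values because the called reticulum genes include classical targets of the unfolded protein response. The ER stress response element is read by Atf6 together with the CCAAT-binding factor NF-Y. Its letters, CCAAT and CCACG with 9 bases of any kind between them, were searched on both strands in the 300 bases around each start, 250 before to 50 after, in RefSeq promoters of GRCm38.p6, which held 35 of the 40 genes. A match was present in 7 of 18 reticulum genes, in 0 of 14 cytosolic genes and in 0.137% of all 27025 genes. Atf6 and Hyou1 had no window and were not searched, and Hyou1 is the only reticulum gene called higher in homozygous blood. Of the 7 reticulum genes with a match, 5 fell in homozygous blood relative to wild type, with a median log2 difference of -0.41. Of the 11 without one, 4 were lower, with a median of 0.04. Over all genes 14.9% were called lower. Of genes with a mean log2 value of at least 8, which Hspa5, Calr and Canx have, 66% were called in either direction. Whether a match goes with the differences was not tested. These are descriptions of letters in a window, not of bound sites, and Dnajb9, which had the lowest difference of the 40 genes, holds no match in this window. The 7 promoters are shown with the match in capitals, in the direction of the gene. They are the first 250 bases before the start for Hspa5 (chr2:34771840-34772089, plus strand), a stretch with 2 matches for Hsp90b1 (chr10:86705521-86705668, minus strand) and the close surroundings for the others, Calr at chr8:84847063-84847105 (minus strand), Canx at chr11:50325788-50325830 (minus strand), Pdia6 at chr12:17266479-17266521 (plus strand), Dnajc3 at chr14:118937815-118937857 (plus strand) and Syvn1 at chr19:6046520-6046562 (plus strand).
Hspa5: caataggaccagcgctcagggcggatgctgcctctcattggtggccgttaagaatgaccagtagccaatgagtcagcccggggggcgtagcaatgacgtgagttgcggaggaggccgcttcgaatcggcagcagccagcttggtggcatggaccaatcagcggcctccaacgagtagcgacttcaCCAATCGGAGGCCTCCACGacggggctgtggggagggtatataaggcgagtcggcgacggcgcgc
Hsp90b1: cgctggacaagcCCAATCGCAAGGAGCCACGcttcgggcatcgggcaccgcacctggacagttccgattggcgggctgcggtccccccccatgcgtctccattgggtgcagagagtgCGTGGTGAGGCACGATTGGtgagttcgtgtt
Calr: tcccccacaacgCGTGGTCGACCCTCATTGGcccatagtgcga
Canx: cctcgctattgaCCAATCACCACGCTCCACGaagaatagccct
Pdia6: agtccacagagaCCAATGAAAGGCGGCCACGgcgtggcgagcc
Dnajc3: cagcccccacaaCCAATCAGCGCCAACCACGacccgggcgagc
Syvn1: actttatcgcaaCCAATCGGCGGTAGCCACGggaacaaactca
The match of Hspa5 lies 65 to 47 bases before the start and that of Syvn1 44 to 26 bases before it. Hspa5, Hsp90b1, Calr, Canx and Pdia6 are the 5 that fell, whereas Dnajc3 and Syvn1 carry the same letters and were not called on their brightest probe sets. For Dnajc3, 2 dimmer probe sets were lower, at -0.31 and -0.57.

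In the cytosol, the heat shock proteins that fell were mostly J-domain cochaperones, which hand clients to Hsp70, and large Hsp70 relatives. Dnajb6, a suppressor of protein aggregation, had log2 values of 9.22, 9.09 and 9.07 on the homozygous arrays, 9.76, 9.74 and 9.64 on the heterozygous and 10.07, 10.04 and 10.02 on the wild-type arrays. Dnaja1, a farnesylated cochaperone, had log2 values of 9.37, 9.35 and 9.30 on the homozygous arrays, 9.70, 9.72 and 9.76 on the heterozygous and 9.92, 9.99 and 9.97 on the wild-type arrays. Both genes formed 3 separate steps with homozygous blood lowest. On the homozygous arrays the difference from wild type was -0.92 ± 0.06 for Dnajb6 and -0.62 ± 0.05 for Dnaja1 on the log2 scale (SE, adjusted p = 5.45e-07 and 4.3e-06), or 1.89-fold and 1.54-fold. All 4 probe sets of Dnajb6, from -1.03 to -0.37, and all 3 of Dnaja1, from -0.62 to -0.42, were lower.

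Hspa4, an Hsp110-type exchange factor, had log2 values of 7.12, 6.90 and 6.96 on the homozygous arrays, 7.37, 7.30 and 7.27 on the heterozygous and 7.44, 7.43 and 7.39 on the wild-type arrays. Hsph1, the Hsp110 paralog, had log2 values of 9.09, 9.02 and 8.92 on the homozygous arrays, 9.33, 9.32 and 9.31 on the heterozygous and 9.35, 9.33 and 9.28 on the wild-type arrays. In each the homozygous arrays were below all 6 others. Relative to wild type, homozygous blood differed by -0.43 ± 0.07 for Hspa4 and -0.31 ± 0.06 for Hsph1 (SE, adjusted p = 0.000467 and 0.00256). Dnajb1, at -0.17 ± 0.05 (adjusted p = 0.0411), completed the 5 and was the weakest: leaving out homozygous replicate 2 or 3, heterozygous replicate 1 or 2 or any wild-type array ended its call (adjusted p between 0.0584 and 0.124).

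Hspa8, the constitutive Hsp70 that also strips clathrin, was level, with log2 values of 11.72, 11.64 and 11.74 on the homozygous arrays, 11.74, 11.72 and 11.77 on the heterozygous and 11.72, 11.72 and 11.70 on the wild-type arrays. All 3 genotypes overlapped, and the homozygous minus wild-type difference was -0.01 ± 0.05 (SE, adjusted p = 0.901). The other uncalled genes of the list were Hsp90aa1, Hspb1, Bag3 and Stip1, with log2 differences from -0.15 to 0.16. A dimmer probe set of Hsp90aa1 was lower, at -0.38 (adjusted p = 0.000736). The heat shock element, GAA, TTC and GAA with 2 bases of any kind between neighbouring units, is read by Hsf1. Searched on both strands, it was found in the same promoter windows of Dnajb6, Hsph1, Hspd1 and Hspe1 and in 0.662% of all genes. Hspa8, Hsp90aa1 and Cct4 had no window and were not searched. The match of Dnajb6 is shown as an example from a gene that fell (chr5:29735840-29735876, plus strand, match in capitals).
Dnajb6: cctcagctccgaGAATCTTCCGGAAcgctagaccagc
Of the 4 genes with this match, Dnajb6, Hsph1 and Hspd1 fell and Hspe1 rose in homozygous blood. Hspd1 and Hspe1 hold the same matches, as described below, and those of Hsph1 lie after its start. Whether the match goes with a direction was not tested.

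TRiC, the chaperonin that folds actin and tubulin and is built of 8 kinds of subunit in a double ring, was higher in homozygous blood in 6 of the 7 subunit genes on the list. Over all genes 10.7% were called higher, and 66% of genes with a mean log2 value of at least 8 were called in either direction. Cct6a, a subunit gene outside that list, was at 0.11 relative to wild type on the log2 scale and did not pass (adjusted p = 0.375). Cct7 had log2 values of 10.58, 10.58 and 10.53 on the homozygous arrays, 10.06, 10.10 and 10.02 on the heterozygous and 9.70, 9.77 and 9.73 on the wild-type arrays. Tcp1, the alpha subunit, had log2 values of 11.29, 11.24 and 11.21 on the homozygous arrays, 11.08, 11.08 and 11.09 on the heterozygous and 10.80, 10.76 and 10.68 on the wild-type arrays. In both, the arrays of the 3 genotypes formed separate steps with homozygous blood on top. For Tcp1 the homozygous minus heterozygous step of 0.16 did not pass (adjusted p = 0.091). Arrays of 2 genotypes did not overlap in 29.9% to 39.3% of all genes, depending on the comparison. Cct7 rose by 0.83 ± 0.05 and Tcp1 by 0.50 ± 0.06 on the log2 scale in homozygous relative to wild-type blood (SE, adjusted p = 4.34e-07 and 3.46e-05), or 1.78-fold and 1.41-fold.

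Cct3 had log2 values of 10.58, 10.51 and 10.51 on the homozygous arrays, 10.31, 10.36 and 10.30 on the heterozygous and 10.09, 10.10 and 10.09 on the wild-type arrays. Cct8 had log2 values of 9.34, 9.14 and 9.11 on the homozygous arrays, 8.90, 8.90 and 8.83 on the heterozygous and 8.76, 8.77 and 8.75 on the wild-type arrays. Again no genotype overlapped with another, though the heterozygous minus wild-type difference of Cct8, 0.12, did not pass (adjusted p = 0.39). The homozygous minus wild-type differences of Cct3 and Cct8 were both 0.44 (SE 0.05 and 0.07, adjusted p = 6.46e-05 and 0.000427). Cct2 and Cct5 rose by 0.43 and 0.40 (adjusted p = 0.000215 and 0.000146), which puts 5 of the 6 called subunits between 0.40 and 0.50 and Cct7 above them. Cct4 differed, at 0.01 ± 0.06 (SE, adjusted p = 0.927), but its 7 probe sets gave no single answer, since 2 dimmer ones were higher, at 0.24 and 0.22, and 1 lower, at -0.27. All 3 probe sets of Cct2, 6 of 7 of Cct3 and both of Cct7 were higher, and the count of 6 higher subunits was the same under every alternative processing that was tried, with each array left out in turn included.

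**Figure D3:**
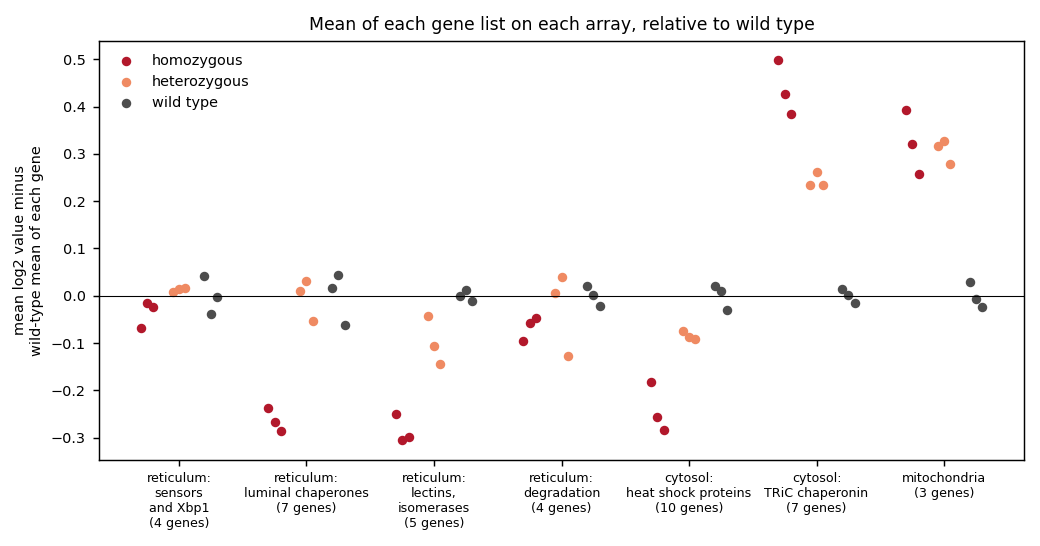
Mean over each gene list of the log2 value minus the gene's wild-type mean (vertical axis), for each of the 9 arrays (points), homozygous, heterozygous and wild type from left to right within a list. TRiC lies at 0.38 to 0.50 on the homozygous and 0.23 to 0.26 on the heterozygous arrays, and heat shock proteins at -0.28 to -0.18 and -0.09 to -0.07.

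The 2 genes of the mitochondrial chaperonin moved in opposite directions in homozygous blood. Hspe1, the lid of the chaperonin, had log2 values of 9.79, 9.73 and 9.68 on the homozygous arrays, 9.47, 9.50 and 9.49 on the heterozygous and 8.88, 8.85 and 8.79 on the wild-type arrays. Hspd1, its barrel, had log2 values of 7.89, 7.84 and 7.73 on the homozygous arrays, 8.47, 8.46 and 8.41 on the heterozygous and 8.30, 8.25 and 8.29 on the wild-type arrays. Hspe1 was thus highest and Hspd1 lowest in homozygous blood, with no overlap between any genotypes in either gene, and Hspd1 was highest in heterozygous blood, though its difference of 0.17 ± 0.06 from wild type did not pass (SE, adjusted p = 0.119).

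Hspe1 rose by 0.90 ± 0.06 on the log2 scale, 1.86-fold, in homozygous relative to wild-type blood (SE, adjusted p = 3.14e-07), while Hspd1 fell by 0.46 ± 0.06, 1.37-fold (adjusted p = 0.000109). The brightest probe set of Hspe1 is of a kind that can bind related transcripts, and the other, which is not, gave 0.65 (adjusted p = 1.05e-05). Hspd1 has 1 probe set. The 2 genes start close together on opposite strands of chromosome 1. The start of Hspe1 is at position 55088148 on the plus strand, and the 2 starts of Hspd1 in the table, on the minus strand, lie 95 and 216 bases from it, one on either side (RefSeq, GRCm38.p6). Their promoter windows share bases, and the 2 overlapping heat shock element matches found for Hspe1 are those found for Hspd1. The stretch before the start of Hspe1 is shown because a window of each gene holds it (chr1:55088019-55088116, plus strand, both matches in capitals as 1 run).
Hspe1: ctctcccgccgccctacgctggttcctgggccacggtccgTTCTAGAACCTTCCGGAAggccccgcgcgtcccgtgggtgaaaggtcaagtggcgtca
Trap1, the Hsp90 of mitochondria, had log2 values of 8.69, 8.58 and 8.54 on the homozygous arrays, 8.20, 8.21 and 8.12 on the heterozygous and 8.11, 8.07 and 8.04 on the wild-type arrays. The homozygous arrays stood above the rest, and the difference from wild type was 0.53 ± 0.06 (SE, adjusted p = 3.74e-05), with its second probe set at 0.57.

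Probe sets of a gene did not always speak with 1 voice. The 40 genes had 110 probe sets, and 8 genes had 1. Like those of Hyou1 and Hspe1, the brightest probe sets of Dnajc3, Canx, Hspa8, Cct2 and Cct3 are of kinds that can bind related transcripts. Of the 24 called genes, 20 had several probe sets. In 13 of these another probe set was called in the same direction, and in 1, Hspa5, a probe set was called in the opposite one. Xbp1, Hyou1, Pdia3, Pdia6, Edem1, Dnajb1 and Cct8 had no second call. Among the 16 uncalled genes, 5 had a dimmer probe set that was called, namely Atf6, Eif2ak3, Dnajc3, Hsp90aa1 and Cct4.

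**Figure D4:**
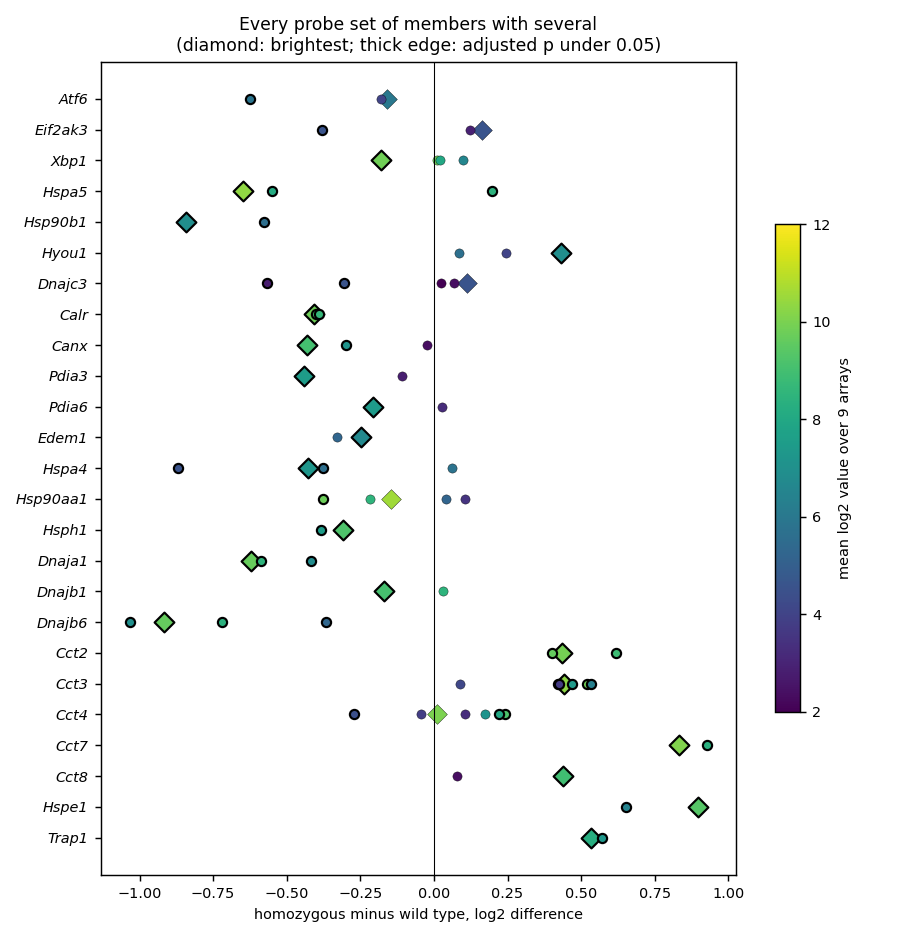
Homozygous minus wild-type log2 difference (horizontal axis) of every probe set of 25 genes that have several probe sets and at least 1 called, coloured by mean log2 value over the 9 arrays. Diamonds mark the brightest probe set and thick edges an adjusted p under 0.05. Calr, Dnaja1, Dnajb6, Cct2 and Cct7 have all probe sets on 1 side of 0, whereas those of Dnajc3, Cct4 and Hspa5 lie on both sides.

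Heterozygous blood was set against wild type to show the genes that differ with 1 copy of the allele. Here 6 of the 40 genes were higher and 5 lower (all genes, 11.8% called, 4.79% higher and 7.04% lower), and the arrays did not overlap for 23 of 40, against 29.9% of all genes. The median log2 difference was 0.03 over the 40 genes and 0.01 over all genes. Higher were Hyou1, Hspe1 and the TRiC subunits Cct2, Cct3, Cct7 and Tcp1. Hspe1 rose most, by 0.65 ± 0.06 on the log2 scale (SE, adjusted p = 3.75e-05), followed by Hyou1. Cct2 rose by 0.39, Tcp1 by 0.34, Cct7 by 0.33 and Cct3 by 0.23 (adjusted p = 0.00156, 0.00245, 0.00247 and 0.0176).

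All 7 TRiC genes had a positive difference there, with a median of 0.23 on the log2 scale. In all 7 the heterozygous and wild-type arrays did not overlap, against 29.9% of all genes. All 7 have a mean log2 value of at least 8. How many of all genes that bright were called or without overlap was not counted here or for homozygous minus heterozygous. Lower were Dnajb6 at -0.33 ± 0.06, Hsp90b1 at -0.30 ± 0.08, Dnaja1 at -0.24 ± 0.05, Hspa5 at -0.23 ± 0.06 and Calr at -0.22 ± 0.06 (SE, adjusted p = 0.00522, 0.0369, 0.0175, 0.0229 and 0.0293). Dnajb9, at -0.25 ± 0.07, did not pass (adjusted p = 0.0628). Apart from that of Dnajb6, these calls depended on single arrays. Hspa5 and Calr lost the call when any 1 heterozygous or wild-type array was left out (adjusted p between 0.0508 and 0.0861, and between 0.0547 and 0.116). Hsp90b1 lost it without any 1 of these or without homozygous replicate 3 (adjusted p between 0.0506 and 0.152). Dnaja1 lost it without heterozygous replicate 1 or 2 or wild-type replicate 2 or 3 (0.063 to 0.0738). Among the rises, Cct3 lost it without any wild-type array or heterozygous replicate 1 or 2 (0.0533 to 0.0749).

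Set against heterozygous blood, homozygous blood had 6 of the 40 genes higher and 11 lower (all genes, 15.8% called, 5.38% higher and 10.4% lower), and 27 of 40 without overlap, against 31.1% of all genes. The median log2 difference was -0.04 over the 40 genes and 0.03 over all genes. In the reticulum 6 genes were lower and none higher. Besides Dnajb9 at -0.96, they were Hsp90b1 at -0.54, Pdia3 at -0.47, Hspa5 at -0.42, Canx at -0.40 and Edem1 at -0.29. The last lost its call without any homozygous array or without heterozygous replicate 1 or 2 (adjusted p between 0.0561 and 0.131). In the cytosol Dnajb6, Dnaja1, Hspa4 and Hsph1 were lower, at -0.59, -0.39, -0.32 and -0.31.

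On the higher side of this comparison stood Cct7 at 0.50, Cct8 at 0.32, Cct5 at 0.23 and Cct3 at 0.21 on the log2 scale, with Trap1 at 0.43 and Hspe1 at 0.25 ± 0.06 (SE, adjusted p = 0.0123). Cct5 lost its call without heterozygous replicate 1 (adjusted p = 0.0628) and Cct3 without heterozygous replicate 1 or 3 (0.0803 and 0.0688). Hspd1 fell by 0.63 ± 0.06 in homozygous relative to heterozygous blood (SE, adjusted p = 2.2e-05). The 3 comparisons share arrays, so they are not independent of each other.

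Across the 24 genes that differed between homozygous and wild-type blood, the heterozygous mean lay between the other 2 in 19, or 79.2%, against 83.2% of the 4661 genes called in that comparison over the whole array. Exceptions were Hyou1, Pdia3, Edem1, Hsph1 and Hspd1. Hspa5, Hsp90b1, Dnaja1 and Dnajb6 were called in all 3 comparisons in the falling direction, and Cct3, Cct7 and Hspe1 in the rising direction. Another 16 genes were called in none on their brightest probe sets: Ern1, Atf6, Eif2ak3, Dnajb11, Dnajc3, Sdf2l1, Pdia4, Herpud1, Syvn1, Sel1l, Hspa8, Hsp90aa1, Hspb1, Bag3, Stip1 and Cct4. Between heterozygous and wild-type blood, a dimmer probe set was lower for Hspb1 (-0.34), Hsp90aa1 (-0.27) and Cct4 (-0.20). Between homozygous and heterozygous blood, a dimmer probe set was lower for Atf6 (-0.51), Eif2ak3 (-0.34) and Dnajc3 (-0.51).

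Further genes of the same pathways were read in the same way, by the brightest probe set, and their other probe sets were not compared. The probe sets of Sec62, Sec63, Selenos and Trib3, for example, are of kinds that can bind related transcripts. Of 21 other genes of folding and translocation in the reticulum, 4 were higher and 6 lower in homozygous blood against wild type, where 10.7% of all genes were higher and 14.9% lower. Sec62 averaged 8.95 ± 0.07 in homozygous and 10.17 ± 0.03 in wild-type blood on the log2 scale, and Sec63 averaged 6.36 ± 0.04 in homozygous and 7.03 ± 0.05 in wild-type blood (SD, n = 3 each). Both belong to the translocon through which proteins enter the reticulum, and they fell by 1.22 and 0.67 (adjusted p = 3.67e-08 and 3.16e-06). Ddost, a subunit of the enzyme that attaches sugar chains, rose by 0.65 (adjusted p = 5.08e-06).

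Among 12 other degradation genes 2 were higher and 5 lower, beside the same 10.7% and 14.9% of all genes. Edem3, which trims mannose like Edem1, averaged 4.82 ± 0.09 in homozygous and 6.04 ± 0.14 in wild-type blood on the log2 scale (SD, n = 3 each), a difference of -1.22. Ubxn4, an anchor for the extraction motor Vcp, fell by 1.08, and Selenos, a membrane selenoprotein of the same machinery, by 0.56 (adjusted p = 2.78e-07, 1.73e-07 and 0.000374 for the 3 genes). Of 8 genes of the branch of Eif2ak3 and Atf4, Atf4 itself included, 2 were higher and 2 lower (all genes, 25.6% called). Ddit3, the stress transcription factor also called Chop, averaged 8.42 ± 0.12 in homozygous and 7.97 ± 0.02 in wild-type blood (SD, n = 3 each) and rose by 0.45. Trib3, a pseudokinase induced by Atf4, rose by 0.30, and Ppp1r15a, the phosphatase subunit that restores translation, fell by 0.39 (adjusted p = 0.000298, 0.00285 and 0.000517).

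Of 20 other cytosolic chaperones, 3 were higher and 10 lower, against 10.7% and 14.9% of all genes. Of genes with a mean log2 value of at least 8, 66% were called in either direction, but several of the 20, Hspa4l among them, are dimmer than that. Dnajb4, a J-domain protein, averaged 8.73 ± 0.08 in homozygous and 9.76 ± 0.03 in wild-type blood on the log2 scale (SD, n = 3 each) and fell by 1.03. Hspa4l, a relative of Hspa4, fell by 0.91, whereas Fkbp4, a cochaperone of Hsp90 and steroid receptors, rose by 0.70 (adjusted p = 1.59e-07, 4.51e-05 and 8.71e-06). Of 9 other genes of TRiC and prefoldin, the complex that hands actin and tubulin to TRiC, 3 were higher and 2 lower (all genes, 25.6% called). Vbp1, a prefoldin subunit, averaged 9.85 ± 0.14 in homozygous and 10.85 ± 0.06 in wild-type blood (SD, n = 3 each) and fell by 1.01, and the TRiC regulator Pdcl3 fell by 0.68. Pfdn5, another prefoldin subunit, rose by 0.44 (adjusted p = 1.35e-06, 7.77e-05 and 0.000332).

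Of 11 further mitochondrial chaperones and proteases, 4 were higher and 3 lower, against 10.7% and 14.9% of all genes. Clpp, the barrel of a mitochondrial protease, averaged 8.12 ± 0.04 in homozygous and 7.44 ± 0.14 in wild-type blood on the log2 scale (SD, n = 3 each) and rose by 0.68. Clpx, the unfoldase that feeds it, averaged 5.21 ± 0.05 in homozygous and 6.15 ± 0.08 in wild-type blood and fell by 0.94. Hscb, a J-domain protein of iron-sulfur cluster assembly, fell by 0.79 (adjusted p = 1.83e-05, 4.46e-07 and 4.83e-07). As with Hspe1 and Hspd1, the 2 partners of 1 complex thus moved in opposite directions.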

How the data were processed

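The authors deposited 1 table of 45101 probe sets by 9 arrays. Per the submitters' processing notes it was made with Affymetrix Expression Console 1.0, RMA and Partek 6.5, with no role given to each. The deposited values run from 1.49 to 14.56 and were read as log2 intensities because RMA is named and the range fits, although the labels give no scale. RMA equalizes the arrays, so a uniform shift in RNA content is lost. Scanner files were not used here, and the signal over background of a probe set is not known.

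After removal of 64 control probe sets, a linear model with moderated variances (limma 3.58.1, R 4.3.3) was fitted to the other 45037 on all 9 arrays, with genotype from the titles and Benjamini-Hochberg adjustment at 0.05, 2-sided. The platform annotation named 1 gene for 34945 probe sets, several for 932 and none for 9160. RefSeq (GRCm38.p6) matched 34741 and changed 0 symbols. The genes, their roles and the other lists were chosen with earlier results of these data known, so counts and medians describe the lists. Values by array are given for up to 4 called genes of a list with the largest homozygous minus wild-type difference, and always for Hspa5, Dnajb9, Xbp1, Hsf1, Hspa8, Hspd1 and Hspe1, as far as measured. From each other list up to 3 called genes are named, and Cct6a is given besides. Second probe sets are given for some of the folding genes, but for no gene of the other lists. The procedure was tested on simulated arrays. Alternatives covered the arrays fitted, a replicate block, filters, the variance prior, array weights, scaling, the choice of probe sets, a threshold of 0.01 and each array left out. Replicate numbers did not pair the arrays (correlations of deviations from -0.02 to 0.07). Figures were drawn with matplotlib 3.10.9.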

Additional observations from a re-analysis of the deposited data

Results flagged for a closer look

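The poly-A spike-in probe sets, which no comparison above uses, differed by genotype: relative to wild-type samples they were higher by 1.58 on the log2 scale in homozygous and by 0.88 in heterozygous samples. This drew attention because added transcripts carry no genotype. Their part in the differences of the folding genes was not tested beyond the scaling given above.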

How the results depend on the processing

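For homozygous minus wild type, 19 of the 24 calls held under all alternatives. The count higher among the 40 genes (9) ran from 8 to 12 over the settings other than single arrays left out and from 9 to 10 with each array left out. The count lower (15) ran from 11 to 17 and from 11 to 15. Reticulum genes lower (9) numbered 6 to 9 and heat shock genes lower (5) 4 to 6 with each array left out; TRiC genes higher numbered 6 throughout, these 3 counts having been added after the data were seen. In 1 case the direction turned with a call: without probe sets ending in _x_at or _s_at, Dnajc3 was lower (-0.31, adjusted p = 0.0148). The same choice took the call from Hyou1 in homozygous (0.09, adjusted p = 0.457) and heterozygous blood (0.10, adjusted p = 0.531). For heterozygous minus wild type, the 5 lower genes became 8 with arrays scaled to reference genes, 1 at a threshold of 0.01 and 1 to 5 with each array left out, and 5 of 11 calls held throughout. For homozygous minus heterozygous, the 6 higher genes became 3 at 0.01, and 13 of 17 calls held throughout. Over all probe sets, 9019 were called for homozygous minus wild type, but 5128 with 1 probe set per gene and 5291 with the mean of a gene's probe sets. For heterozygous minus wild type the 3855 became 2482 and 2315, and 2153 at 0.01, and for homozygous minus heterozygous the 5459 became 3302, 3231 and 3057; fewer features were tested in the first 2 settings. With the replicate number as a block, 9 genes were higher and 13 lower for homozygous minus wild type, 6 and 5 for heterozygous minus wild type and 6 and 11 for homozygous minus heterozygous. The 2 calls lost in the first were Xbp1 (adjusted p = 0.0634) and Dnajb1 (0.0673), and Hsp90b1 lost its call for heterozygous minus wild type (0.051), where Dnajb9 gained one (0.0352). Quantile normalization ended the homozygous minus wild-type calls of Xbp1, Pdia6, Edem1 and Dnajb1 (-0.07, -0.10, -0.17 and -0.08). Scaling to reference genes moved the share of higher among called probe sets to 22.0% from 41.7% for homozygous and to 17.2% from 39.8% for heterozygous minus wild type, and quantile normalization to 44.3% from 34.4% for homozygous minus heterozygous. The cause of these shifts was not tested. The number of arrays limits the precision, and small differences may have been missed.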
